A study of Mus musculus with 6 samples.

Results

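Integrins are the transmembrane receptors by which epithelial cells hold on to the extracellular matrix. Each receptor is a heterodimer of an alpha and a beta subunit, the pair of subunits sets which matrix protein is bound, and the short cytoplasmic tail of the beta subunit recruits talin and kindlin to couple the receptor to actin. Focal adhesion kinase (FAK) is a tyrosine kinase that gathers at clustered integrins and carries their signals inward. In skin, basal keratinocytes use α6β4 in the hemidesmosome and α3β1 outside it to bind laminin, and the αv receptors bind vitronectin, fibronectin and latent TGF-β, and several of them, such as αvβ6, are expressed more highly during wounding and in carcinoma.

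The genes described here are 10 integrin subunits, 5 beta subunits (Itgb1, Itgb3, Itgb4, Itgb5 and Itgb6) and 5 alpha subunits (Itga2, Itga3, Itga5, Itga6 and Itgav). They were chosen by name through their Ensembl identifiers. Their values were not a criterion, but earlier results of these data were known when they were chosen. All 10 were found among the 17204 genes of the expression table. They were compared between SCC FAK-/- and SCC FAK-WT cells, each with 3 numbered replicates and 1 Affymetrix GeneChip array per replicate. Both are squamous cell carcinoma (SCC) lines of the FVB strain and of the genotype K14CreER FAKflox/flox, in which a tamoxifen-activated Cre recombinase is driven by the keratin 14 promoter. Tumors were induced chemically in the skin of such mice, the isolated cells were treated with 4-hydroxytamoxifen, and 1 FAK-null clone became SCC FAK-/-. SCC FAK-WT (FAK-wt in the labels) is this clone after retroviral transduction with wild-type FAK, so that every value below compares a single clone with its own FAK-expressing derivative. The SDs and p-values below therefore describe the spread between arrays of these lines, not between independent clones. Cells re-expressing FAK were kept in hygromycin, so FAK and the drug selection cannot be told apart if the FAK-null cells were grown without it, which is not given in the sources used here. The labels name no FAK-null cells with an empty vector, so FAK and the transduction cannot be told apart either. The age of the mice is not given there either.

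Values are log2 expression after Robust Multi-array Average (RMA) normalization by the authors, and the array medians were 5.90 to 5.97. RMA values depend on the probes of each gene, so values are compared between cell lines for 1 gene, and levels are not compared between genes. Differences were tested with limma over all 17204 genes, with Benjamini-Hochberg adjustment, and a gene was called at an adjusted p under 0.05. Calls at an unadjusted p under 0.01 are given beside it, since the study used p under 0.01 without saying whether it was adjusted. The identifiers of the other genes were not paired with symbols here, so the FAK transcript itself, the keratinocyte markers that would check the labelled cell type, and integrin ligands and adaptors were not analysed here.

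Re-expression of FAK went with a change in a minority of the integrin subunits. Itga3, the alpha subunit of the laminin receptor α3β1, rose 1.64-fold in SCC FAK-WT cells. Itgb3, the beta subunit of the vitronectin receptor αvβ3, fell in the same cells, to a level 1.99-fold below that of SCC FAK-/- cells. Both subunits of α6β4, the hemidesmosome receptor, had lower mean values in SCC FAK-WT cells, Itga6 by 1.31-fold and Itgb4 by 1.40-fold, without passing the adjusted threshold. The common partner Itgb1 and the other 5 subunits (Itgb5, Itgb6, Itga2, Itga5 and Itgav) had 95% intervals of the difference that included 0. At an adjusted p under 0.05, 1 of the 10 subunits was higher, where 0.82% of all genes were, and 1 was lower, where 1.1% of all genes were. At an unadjusted p under 0.01, 1 subunit was higher against 3.19% of all genes and 2 were lower against 3.66% of all genes. With 10 genes, counts of 1 or 2 say little about integrins as a family. The values of the cell lines did not overlap in 4 of the 10 subunits, and 21.5% of all genes showed the same separation. The median log2 fold change of the 10 subunits was -0.10, against 0.016 over all genes, and the median of its absolute size was 0.16 against 0.14.

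**Figure D1:**
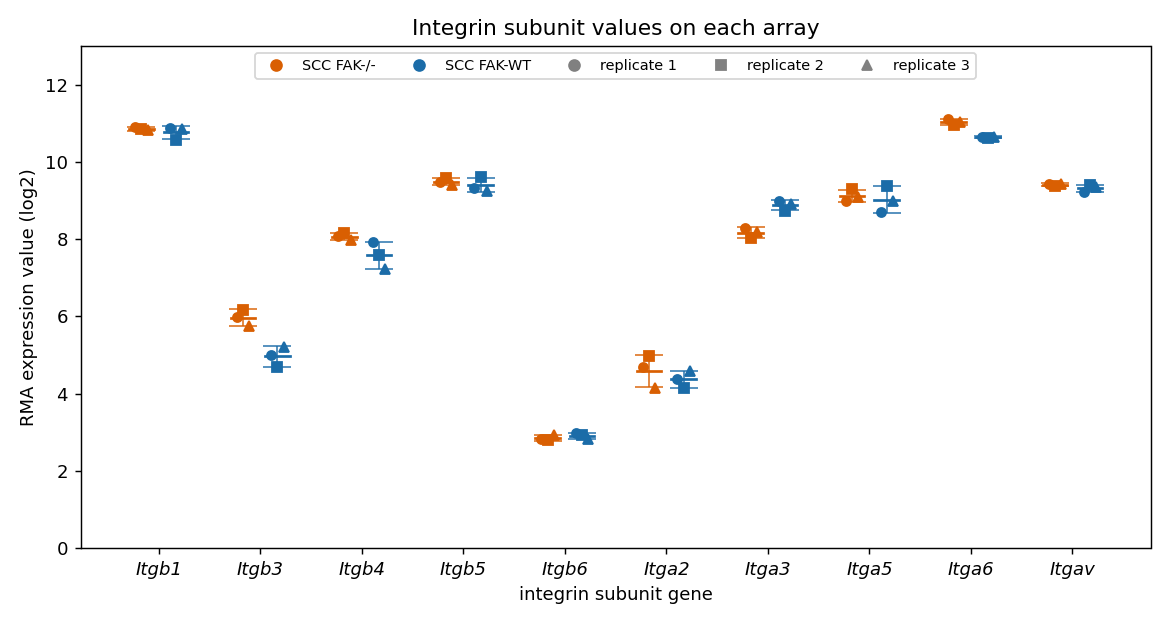
Log2 RMA expression of the 10 integrin subunit genes (x axis) on each of the 6 arrays (y axis, log2), with SCC FAK-/- in orange, SCC FAK-WT in blue, a symbol for each replicate, and bars for the mean and SD of 3 arrays. Cell lines are to be compared within a gene: the SCC FAK-WT points of Itgb3, Itgb4 and Itga6 lie below every SCC FAK-/- point, those of Itga3 lie above, and in the other 6 genes the points overlap.

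Of the 4 subunits whose values separated the cell lines, Itga3, Itga6 and Itgb4 belong to laminin receptors. Itga3 was higher in SCC FAK-WT cells and Itga6 and Itgb4 were lower, while Itgb1, also of laminin receptors, overlapped. Itga3 (ENSMUSG00000001507, chromosome 11, 95044475 to 95076844 in GRCm38.p6, the build of every position given here) encodes the alpha subunit that pairs with Itgb1 alone. Its value was 8.29, 8.02 and 8.18 on the 3 SCC FAK-/- arrays. On the SCC FAK-WT arrays it was 8.98, 8.73 and 8.92. Every SCC FAK-WT array was thus above every SCC FAK-/- array, with replicate 2 the lowest of its line in both. The mean was 8.17 ± 0.14 (SD, n = 3) in SCC FAK-/- and 8.88 ± 0.13 (SD, n = 3) in SCC FAK-WT cells. The log2 fold change was 0.71 with a standard error of 0.12 (95% interval 0.43 to 0.99, limma adjusted p = 0.0380). In size this change ranked 668th of the 17204 genes. The adjusted threshold was narrowly met: leaving out any 1 of the 6 arrays (SCC FAK-WT replicate 1, 2 or 3 or SCC FAK-/- replicate 1, 2 or 3) raised the adjusted p to 0.0567 to 0.130, while the fold change stayed between 0.64 and 0.78 on the log2 scale and the unadjusted p stayed under 0.01. Without moderation of the variances the adjusted p was 0.133.

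The sequence before Itga3 is shown because this was the only subunit called higher in SCC FAK-WT cells. The one before Itgb1 is shown because Itgb1 encodes the other chain of the same receptor. Both are from RefSeq (GRCm38.p6) and end 1 base before the annotated gene, at chr11:95076845-95076964 on the minus strand for Itga3 and chr8:128685404-128685653 on the plus strand for Itgb1. Capitals mark the GC box, GGGCGG on either strand, the core of the element that Sp1-type factors bind.
Itga3: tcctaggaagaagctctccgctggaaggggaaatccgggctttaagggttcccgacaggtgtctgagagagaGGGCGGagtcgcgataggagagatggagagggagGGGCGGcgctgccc
Itgb1: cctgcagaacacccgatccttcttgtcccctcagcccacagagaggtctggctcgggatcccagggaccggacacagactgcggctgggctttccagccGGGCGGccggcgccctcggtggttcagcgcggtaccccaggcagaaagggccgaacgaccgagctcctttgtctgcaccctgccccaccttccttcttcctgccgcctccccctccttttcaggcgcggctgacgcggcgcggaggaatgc

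The 120 bases before Itga3 held 2 GC boxes and the 250 bases before Itgb1 held 1. Promoter windows of 300 bases, 250 before and 50 after a transcription start, were found for 7 of the 10 subunits, 9 windows in all, since Itga3 and Itgb6 had 2 each. Itgb3, Itgb4 and Itga6 had none. A GC box was in 7 of the 9 windows, all but those of Itgb6, and in 35.7% of the 32851 windows of all genes. The AP-1 element TGANTCA was in 1 of the 9, the second window of Itga3, which lies inside the annotated gene (7.81% of all windows). The TATA box TATAAA and the E-box CACGTG were in none of the 9 (13.6% and 7.15% of all windows). N stands for any base, both strands were searched, the letters of the GC box and the AP-1 element cannot overlap, and a match is only a match of letters. The GC box was found in windows of Itga3, which rose, and of Itgb1, Itgb5, Itga2, Itga5 and Itgav, which were not called. A window surrounds the start of 1 transcript and can lie inside the annotated gene, as that of Itgav does (83724147 to 83724446). The second windows of Itga3 (95069149 to 95069448) and Itgb6 (60673644 to 60673943) do so too.

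Itga6 (ENSMUSG00000027111, chromosome 2, 71786886 to 71858427), whose product pairs with Itgb4 in the hemidesmosome and with Itgb1 elsewhere, had values of 11.10, 10.96 and 11.03 on the SCC FAK-/- arrays. The SCC FAK-WT arrays gave 10.64, 10.62 and 10.66. The 3 SCC FAK-WT arrays were almost equal and all below the SCC FAK-/- arrays. The mean was 11.03 ± 0.069 (SD, n = 3) in SCC FAK-/- and 10.64 ± 0.018 (SD, n = 3) in SCC FAK-WT cells. The log2 fold change was -0.39 with a standard error of 0.093 (95% interval -0.61 to -0.17, limma adjusted p = 0.0934). This passed the unadjusted threshold and not the adjusted one. When the variances were moderated with a trend on the level and robustly, the adjusted p was 0.0164. The unadjusted p rose above 0.01 without SCC FAK-WT replicate 1, 2 or 3 or SCC FAK-/- replicate 1 or 3, to 0.0108 to 0.0168, and stayed at 0.00777 without SCC FAK-/- replicate 2.

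Itgb4 (ENSMUSG00000020758, chromosome 11, 115974725 to 116008412) encodes the beta subunit with the long cytoplasmic domain that anchors keratin filaments through plectin. It was at 8.07, 8.15 and 7.97 in SCC FAK-/- cells. In SCC FAK-WT cells it was at 7.93, 7.58 and 7.22, so the lines did not overlap, though SCC FAK-WT replicate 1 lay close to the lowest SCC FAK-/- value, and SCC FAK-WT replicate 3 lay farthest below. The means were 8.06 ± 0.090 (SD, n = 3) and 7.58 ± 0.36 (SD, n = 3). This is a log2 fold change of -0.49 with a standard error of 0.18 (95% interval -0.91 to -0.063, limma adjusted p = 0.253). It passed neither the adjusted nor the unadjusted threshold. The size depended on single arrays, at -0.66 without SCC FAK-WT replicate 1, where the unadjusted p was 0.00402 (adjusted p = 0.124), and at -0.31 without SCC FAK-WT replicate 3 (adjusted p = 0.434).

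Itgb1 (ENSMUSG00000025809, chromosome 8, 128685654 to 128733579) encodes the beta subunit shared by the collagen, laminin and fibronectin receptors of the list. SCC FAK-/- arrays had 10.91, 10.85 and 10.81. SCC FAK-WT arrays had 10.88, 10.57 and 10.86, with only replicate 2 below the SCC FAK-/- values. The log2 fold change was -0.089 (standard error 0.12, 95% interval -0.36 to 0.18, adjusted p = 0.797), which on the linear scale spans from 1.28-fold lower to 1.14-fold higher. Without SCC FAK-WT replicate 2 the log2 fold change was 0.0087.

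**Figure D2:**
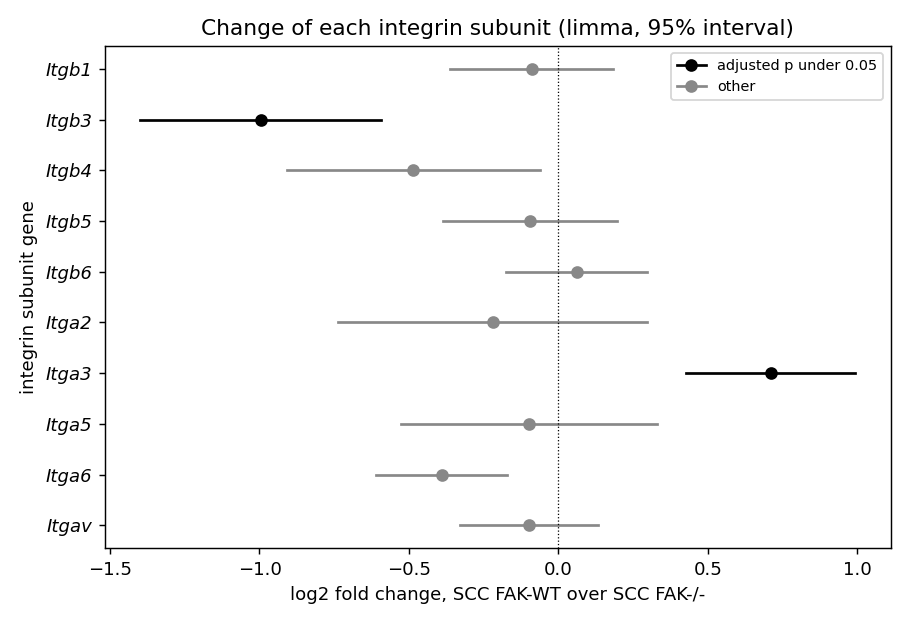
Log2 fold change of SCC FAK-WT over SCC FAK-/- cells (x axis) for each integrin subunit gene (y axis), as points with the 95% interval from limma, black where the adjusted p was under 0.05 and gray elsewhere. Itga3 at 0.71 and Itgb3 at -0.996 are black, the intervals of Itga6 and Itgb4 also lie below 0, and those of the other 6 genes include 0.

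Of the beta subunits listed here that pair with αv, only Itgb3 was called. Itgb3 (ENSMUSG00000020689, chromosome 11, 104608000 to 104670476) pairs with Itgav to bind RGD-bearing matrix proteins such as vitronectin and, in platelets, with the αIIb subunit to bind fibrinogen. Its values were 5.98, 6.18 and 5.74 in SCC FAK-/- cells. They were 5.00, 4.69 and 5.22 in SCC FAK-WT cells, and the highest of these was below the lowest SCC FAK-/- value. The mean was 5.97 ± 0.22 (SD, n = 3) in the former and 4.97 ± 0.27 (SD, n = 3) in the latter. The log2 fold change was -0.996 with a standard error of 0.17 (95% interval -1.40 to -0.59, limma adjusted p = 0.0396). It was the largest change among the 10 subunits and ranked 255th in size among the 17204 genes. By mean value Itgb3 was at percentile 44.4 of all genes, so this change is in a gene below the middle of the range. The adjusted p remained under 0.05 without SCC FAK-WT replicate 3, at 0.0478. It was 0.0732 to 0.133 without SCC FAK-WT replicate 1 or 2 or SCC FAK-/- replicate 1, 2 or 3, with log2 fold changes from -1.11 to -0.86. In each of these fits the unadjusted p was under 0.01. The adjusted p was 0.183 without moderation of the variances.

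Itgav (ENSMUSG00000027087, chromosome 2, 83722303 to 83806917), the alpha subunit of this receptor and of αvβ5 and αvβ6, was at 9.41, 9.38 and 9.44 in SCC FAK-/- cells. It was at 9.21, 9.40 and 9.34 in SCC FAK-WT cells, overlapping with them. The log2 fold change was -0.097 (standard error 0.098, 95% interval -0.33 to 0.13, adjusted p = 0.728), from 1.25-fold lower to 1.10-fold higher.

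Itgb5 (ENSMUSG00000022817, chromosome 16, 33829665 to 33949338), whose product binds vitronectin with αv, was at 9.48, 9.58 and 9.40 in SCC FAK-/- cells. In SCC FAK-WT cells it was at 9.33, 9.60 and 9.25, so that the highest and the lowest of the 6 values were both from SCC FAK-WT cells. This gave a log2 fold change of -0.094 (standard error 0.12, 95% interval -0.39 to 0.20, adjusted p = 0.800).

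Itgb6 (ENSMUSG00000026971, chromosome 2, 60598292 to 60722603) encodes the beta subunit of an epithelial receptor that releases active TGF-β from its latent complex. It had 2.82, 2.80 and 2.94 in SCC FAK-/- cells. It had 2.98, 2.93 and 2.82 in SCC FAK-WT cells, and its interval was -0.17 to 0.30 around a log2 fold change of 0.061 (standard error 0.10, adjusted p = 0.847). It was the only subunit below the lower quartile of all genes on every array, 3.94 to 4.06. At such low values a difference in this gene may be understated.

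The collagen and fibronectin receptors gave no call, though Itga2 was dim, at percentile 31.6 of all genes by mean value. Itga2 (ENSMUSG00000015533, chromosome 13, 114833081 to 114932100), the collagen-binding partner of Itgb1, was at 4.68, 4.96 and 4.14 in SCC FAK-/- cells. It was at 4.38, 4.16 and 4.59 in SCC FAK-WT cells, all within the SCC FAK-/- range. Between the means lay a log2 fold change of -0.22 (standard error 0.22, 95% interval -0.74 to 0.30, adjusted p = 0.721). With 1 array left out it ranged from -0.036 without SCC FAK-/- replicate 2 to -0.45 without SCC FAK-/- replicate 3 (adjusted p = 0.330), and it was -0.11 without SCC FAK-WT replicate 2. This interval, from 1.67-fold lower to 1.23-fold higher, was the widest of the 10, and the SCC FAK-/- SD of 0.42 was the highest SD of any subunit in either line.

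Itga5 (ENSMUSG00000000555, chromosome 15, 103344286 to 103366791), which pairs with Itgb1 as the main fibronectin receptor, was at 8.99, 9.29 and 9.09 in SCC FAK-/- cells. It was at 8.70, 9.38 and 8.99 in SCC FAK-WT cells, where replicate 1 was the lowest and replicate 2 the highest of all 6 values. Its log2 fold change was -0.098 (standard error 0.18, 95% interval -0.53 to 0.33, adjusted p = 0.867). Without SCC FAK-WT replicate 1 it was 0.063.

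Because a receptor needs both subunits, the difference between the alpha and the beta value was also taken within each array for 9 known heterodimers. It cancels any error in scaling that shifts an array as a whole, and its shift between the cell lines shows an unequal change of the subunits. The subunits are shared between heterodimers, so the 9 are not independent, and no test was made. These are differences of transcript values and not amounts of receptor.

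**Figure D3:**
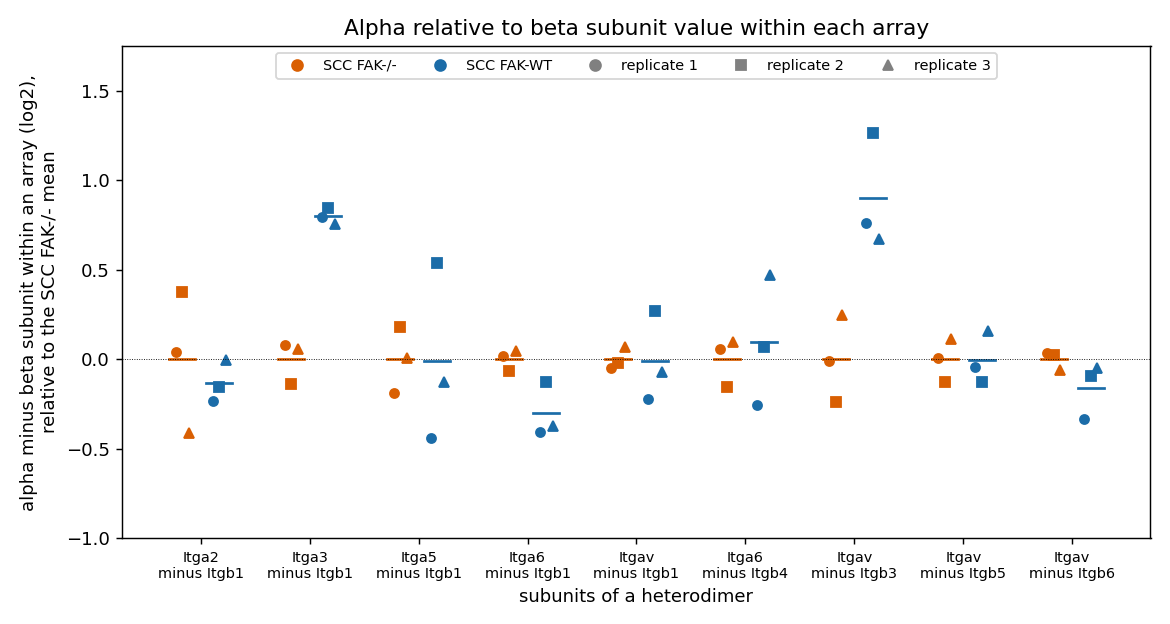
Alpha minus beta subunit value within an array (log2), relative to the SCC FAK-/- mean of that pair (y axis), for 9 heterodimers (x axis), with SCC FAK-/- in orange, SCC FAK-WT in blue, a symbol for each replicate and a bar for the mean. The pair of Itga3 and Itgb1 lies 0.80 higher and that of Itgav and Itgb3 0.90 higher in SCC FAK-WT cells, and the pair of Itga6 and Itgb4 stays within the spread.

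For α3β1, Itga3 minus Itgb1 was -2.69 ± 0.12 (SD, n = 3) in SCC FAK-/- and -1.89 ± 0.047 (SD, n = 3) in SCC FAK-WT cells, a shift of 0.80 toward the alpha subunit. For α6β1, Itga6 minus Itgb1 went from 0.17 ± 0.056 (SD, n = 3) to -0.13 ± 0.15 (SD, n = 3), a shift of -0.30 away from the alpha subunit. The 2 laminin receptors that share Itgb1 therefore shifted in opposite directions, Itga3 up and Itga6 down relative to the same partner. In neither did the values of the cell lines overlap. For α6β1 the gap was narrow, from 0.048 in SCC FAK-WT replicate 2 to 0.11 in SCC FAK-/- replicate 2, and Itga6 itself was not called. How often other pairs of genes separate the lines was not computed here. For αvβ3, Itgav minus Itgb3 went from 3.45 ± 0.25 (SD, n = 3) to 4.35 ± 0.32 (SD, n = 3), a shift of 0.90, again without overlap.

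For α6β4 the difference was 2.97 ± 0.14 (SD, n = 3) in SCC FAK-/- and 3.06 ± 0.36 (SD, n = 3) in SCC FAK-WT cells, a shift of 0.095 that is smaller than either SD, and the values overlapped. The values for α5β1, αvβ1 and αvβ5 shifted by -0.0094, -0.0079 and -0.0031, those for α2β1 by -0.13 and those for αvβ6 by -0.16, and in each of these 5 the cell lines overlapped. The αvβ6 shift is limited by Itgb6, which was below the lower quartile of all genes on every array, and the α2β1 shift by the dim Itga2. Median centering cannot change a difference within an array, so it is no check here. Over quantile normalization, cyclic loess and the 6 fits without an array, the shift was 0.73 to 0.84 for α3β1, -0.39 to -0.25 for α6β1 and 0.72 to 1.02 for αvβ3. It changed sign for α6β4 (-0.092 to 0.27), α2β1 (-0.34 to 0.056), α5β1 (-0.28 to 0.21), αvβ1 (-0.15 to 0.099) and αvβ5 (-0.084 to 0.058).

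**Figure D4:**
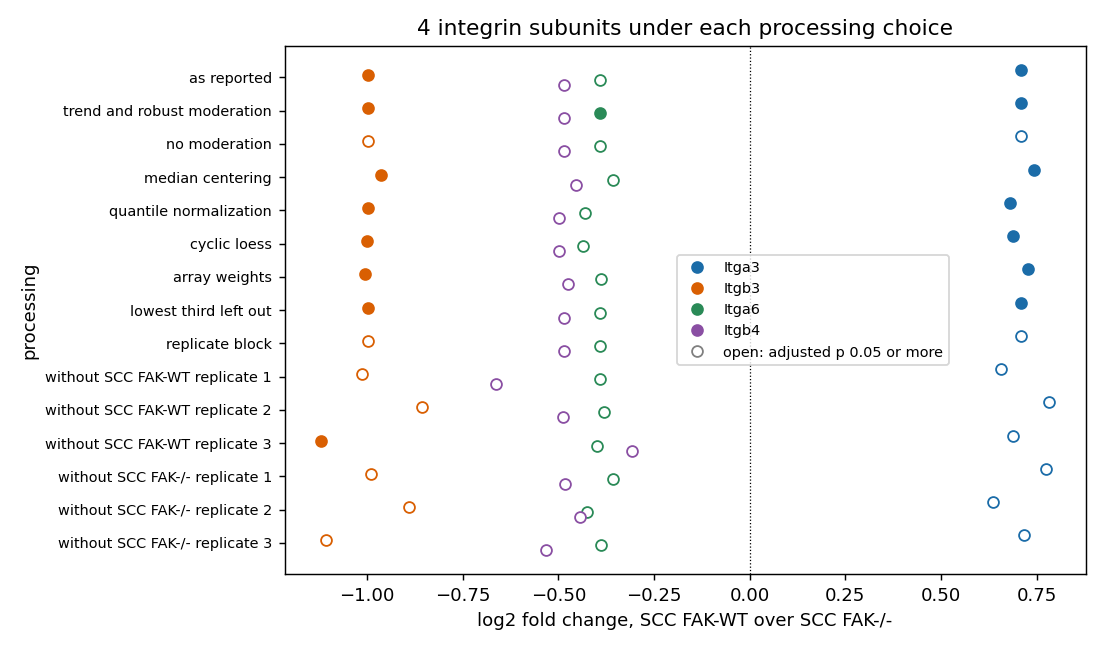
Log2 fold change of SCC FAK-WT over SCC FAK-/- cells (x axis) for the 4 subunits whose values did not overlap between the lines, as reported and under each of 14 other processing choices (y axis), filled where the adjusted p was under 0.05 and open elsewhere. Itga3 stays between 0.64 and 0.78 and Itgb3 between -1.12 and -0.86, but both are open without moderation, with the replicate block and when single arrays are left out, except Itgb3 without SCC FAK-WT replicate 3.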

How the data were processed

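RNA from 3 SCC FAK-WT and 3 SCC FAK-/- samples was hybridized to Affymetrix arrays. The authors obtained 1 value per Ensembl gene identifier and array by RMA in the affy package, and the deposited values were taken as log2 from their range. Versions, probe mapping and the background variant are not given in the sources used here. All 17204 genes were fitted without a filter, with cell line as the only term (limma 3.58.1, R 4.3.3, lmFit, then eBayes, two-sided). The number of arrays limits the precision, and an exact permutation test of 3 against 3 cannot give a p under 0.1. Only the 10 subunits could be paired with symbols, so planned lists of other integrins, ligands, adaptors and cell type markers were not used here. Subunits, lists and heterodimers were chosen with earlier results of these data known, and the motifs after the values were seen. By the rule for naming genes, all 10 subunits are named. On simulated data in which 200 of the 17204 genes differed between SCC FAK-WT and SCC FAK-/- by 1 on the log2 scale, limma called 87.5% of them at an adjusted p under 0.05, with 7.41% of its calls false. The simulated noise was normal, independent between genes and had the variances that limma estimated, which favors the method. Smaller changes, such as that of Itga3 at 0.71, were not simulated. The 14 alternatives were other variance moderation (a trend with robust estimates, or none), further scalings (cyclic loess, quantile normalization or median centering), array weights, leaving out the dimmest genes (1 in 3, by mean value), the replicate number as a block, and each array left out.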

Additional observations from a re-analysis of the deposited data

How the results depend on the processing

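Of the counts of subunits called at an adjusted p under 0.05 (1 higher, 1 lower), both stayed at 1 under median centering, quantile normalization, cyclic loess, array weights and with the dimmest genes left out. Variances moderated with a trend and robustly gave 1 higher and 2 lower, the second being Itga6. Calls over all genes also rose with it, from 141 higher and 189 lower to 247 and 302. No moderation gave 0 and 0, with Itga3 at an adjusted p of 0.133 and Itgb3 at 0.183 (both at an unadjusted p under 0.01). Over all genes, no moderation left 14 higher and 25 lower. Leaving out 1 array gave 0 higher and 0 to 1 lower. These fits have fewer samples, and the calls over all genes also dropped, from 141 higher and 189 lower to 44 to 77 and 64 to 121. At an unadjusted p under 0.01 the count of subunits higher stayed at 1 under all 14 alternatives, and that lower (2) was 1 to 2 with an array left out. With the replicate block, 0 subunits were called higher and 0 lower at an adjusted p under 0.05 (Itga3 0.0651, Itgb3 0.113), and 1 was lower at an unadjusted p under 0.01. Calls over all genes at an adjusted p under 0.05 fell to 69 higher and 91 lower with this block. Arrays with the same number did not deviate together across all genes: r between their deviations from the cell line mean was -0.034 to 0.028. This r cannot tell whether single genes share a deviation by replicate number, and that was not tested. The sign turned in 2 of the 138 log2 fold changes of subunits under an alternative, Itgb1 at 0.0087 without SCC FAK-WT replicate 2 and Itga5 at 0.063 without SCC FAK-WT replicate 1. With each array left out in turn, Itgb1 ranged from -0.14 to 0.0087 and Itga5 from -0.28 to 0.063, and neither gene was called in any of these fits. The cause of these differences was not tested. Itgb6 and Itga2 have no value with the dimmest genes left out. Counts for the other planned gene lists were not run, since their identifiers were not paired with symbols here.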
